A study of Mus musculus with 7 samples.

Results

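The Siglec genes expressed by macrophages of regenerating mouse nerve were followed over time after injury. Siglecs are receptors of the immunoglobulin superfamily that bind sialic acids, the sugars that cap the glycans of most mammalian cells. Most of those on leukocytes carry inhibitory tyrosine motifs in their cytoplasmic tail, which recruit the phosphatases SHP-1 (gene Ptpn6) and SHP-2 (gene Ptpn11) and dampen activating signals. A few lack such a tail or pair instead with the activating adaptor DAP12 (gene Tyrobp), and sialoadhesin (Siglec1) serves mainly in adhesion and capture of sialylated cells and particles. The genes were taken by name from the deposited table: Siglec1, Cd33, Cd22, Siglece, Siglec5, Siglecg and Siglech, 7 of the 23361 genes listed. In mouse, Siglec5 is a synonym in RefSeq of both Siglecf and Siglece. Siglece has an entry of its own in the table, so the Siglec5 entry was read as Siglecf.

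Macrophages were sorted by flow cytometry from the tissue that bridged the gap inside a nerve conduit after the left sciatic nerve of BALB/cJ mice, a wild-type inbred strain, had been cut and repaired at once. They were taken 5, 14 and 28 days after the repair, with no further treatment, and profiled by RNASeq in 3, 2 and 2 libraries. The sort required F4/80, CD14, CD11b and CD16/32 on the surface and excluded cells with lineage markers, among them Siglec F for eosinophils. Siglec F, the product of Siglec5, was thus itself a marker of the sort, and the part of the gate in the Siglec5 level was not tested. The libraries are described as independent biological replicates, but whether each came from 1 mouse or from a pool, and the age of the mice, are not given in the sources used here, and the p-values measure only the spread between these libraries. There was no uninjured nerve among them. The libraries held between 18027190 (day 14, replicate 1) and 35247116 (day 28, replicate 1) fragments assigned to genes, where each single-end read counts as 1 fragment. Levels are given in FPKM, fragments scaled to transcript length and library depth, so that genes of different length can be compared, and differences as log2 fold changes of the fragment counts from the edgeR quasi-likelihood test with Benjamini-Hochberg adjustment over all 12858 genes tested. A gene with an adjusted p under 0.05 is called differentially expressed (DE). All 7 Siglec genes passed the filter on low counts. Because the RNA comes from bulk cells, fewer cells of a type and less RNA per cell cannot be told apart.

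All 8 markers of macrophages were present in each library. Csf1r, the receptor for macrophage colony-stimulating factor, was between 406 and 493 FPKM, and Cd68, a lysosomal glycoprotein, between 916 and 1287 FPKM. Of these 8 markers, 3 were lower on day 28 than on day 5, namely Emr1, Cd14 and Fcgr1, beside 7.51% of all genes tested. Emr1 (F4/80) and Cd14 encode antigens of the sort itself. The markers summed to 5430 to 5946 FPKM on day 5, 3765 to 4428 on day 14 and 3597 to 4035 on day 28. The part of this difference in the Siglec values was not tested.

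Of the 7 genes, 4 lie in 1 cluster on chromosome 7. On the GRCm38 assembly, with GENCODE annotation, Siglecf (chr7:43351341-43359531, plus strand), Siglecg (chr7:43408204-43418358, plus strand), Cd33 (chr7:43524216-43544428, minus strand) and Siglece (chr7:43651070-43660161, minus strand) span 309 kb with 16 protein-coding genes. Cd22 (chr7:30865402-30880342, minus strand) lies on the same chromosome beside Mag, Siglech (chr7:55768178-55778925, plus strand) lies farther along, and Siglec1 (chr2:131069220-131086765, minus strand) is on chromosome 2. Siglecf and Siglece, at the 2 ends of the cluster, are shown here because their transcripts moved in opposite directions over the time course, as described below. The 250 bases before the start of each gene, from RefSeq on GRCm38.p6, are printed 5′ to 3′ on the strand of the gene, chr7:43351091-43351340 (plus strand) for Siglecf and chr7:43660162-43660411 (minus strand) for Siglece. Capitals mark the letters GAGGAA, or TTCCTC where the match is on the other strand, the core bound by PU.1, a transcription factor of myeloid cells.
Siglecf: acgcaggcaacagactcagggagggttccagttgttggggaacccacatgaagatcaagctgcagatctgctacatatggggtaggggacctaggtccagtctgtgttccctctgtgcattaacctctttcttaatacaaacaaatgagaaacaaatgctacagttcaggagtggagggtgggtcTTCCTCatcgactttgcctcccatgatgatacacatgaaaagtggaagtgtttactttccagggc
Siglece: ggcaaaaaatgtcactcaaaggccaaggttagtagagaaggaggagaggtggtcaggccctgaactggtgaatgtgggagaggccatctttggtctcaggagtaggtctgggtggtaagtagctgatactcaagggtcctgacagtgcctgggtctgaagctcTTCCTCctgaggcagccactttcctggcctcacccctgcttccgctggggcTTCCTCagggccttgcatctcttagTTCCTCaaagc
The Siglece window held 3 matches, whose nearest base lay 82, 31 and 6 bases before the start, and the Siglecf window held 1 match, 60 bases before the start. The windows follow RefSeq starts, which differ from the GENCODE coordinates above for some genes. Those of Cd33 (chr7:43533172-43533421) and Cd22 (chr7:30879029-30879278) lie inside the GENCODE gene, and those of Siglecg and Siglech reach into it. The Cd33 window held 1 match, 221 bases before its RefSeq start, 1 of the windows of Siglecg held 2 matches, and the windows of Cd22 and Siglech held 0. Over all 32851 RefSeq windows of this length, 23.3% held the letters on either strand. The letters TATAAA, the core of the TATA box, were found in 0 of the windows of these 6 genes, on either strand, and in 12.4% of all windows. A match is a description of the letters only. Siglec1 had no entry among these windows.

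Sialoadhesin was the most abundant Siglec transcript in each library. Siglec1, which marks certain tissue and inflammatory macrophages, was at 71.0, 86.3 and 62.0 FPKM in the 3 libraries of day 5. It was at 126 and 55.4 FPKM on day 14. It was at 31.1 and 33.2 FPKM on day 28. Both day 28 libraries lay below all others, the day 14 libraries lay on either side of the day 5 range, and replicate 1 of day 14 was the highest of all. The levels of 3 further genes, Cd22, Siglece and Cd33, lay between 5.29 and 22.4 FPKM, and those of Siglec5, Siglecg and Siglech stayed under 2 FPKM. On day 5, Cd22 (10.7 ± 0.729 FPKM, SD, n = 3), Siglece (9.80 ± 2.17) and Cd33 (8.27 ± 1.5) followed Siglec1, and the libraries of neighbours in this order overlapped. On days 14 and 28 the order was Siglec1, Cd33, Cd22 and Siglece, in which the libraries of Cd33 and Cd22 overlapped and those of Cd22 and Siglece did not. On day 28, Siglec5 (1.74 ± 0.241 FPKM, n = 2) came next, above Siglecg (0.505 ± 0.0576) and Siglech (0.324 ± 0.158) with no overlap between neighbours, whereas on day 5 Siglec5 and Siglecg overlapped and on day 14 the libraries of each of the 3 overlapped with those of the next.

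**Figure D1:**
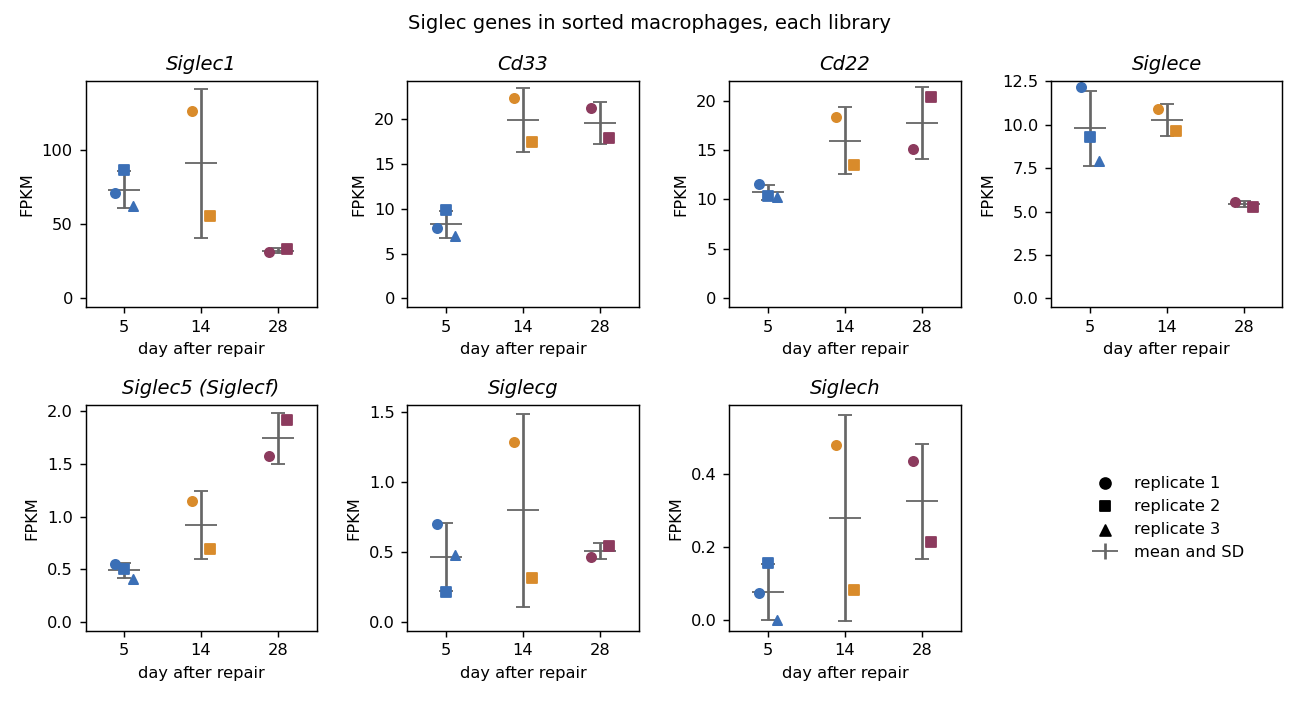
FPKM (vertical axis, linear, a scale of its own for each gene) of the 7 Siglec genes in each library by day after repair (horizontal axis); symbols are replicates, and grey bars give the mean and SD of the 3, 2 and 2 libraries. Siglec1 and Siglece were lowest in both day 28 libraries, Cd33 and Cd22 were higher in all day 14 and day 28 libraries than in any of day 5, and day 14 replicate 1 exceeded replicate 2 for all 7 genes.

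The summed level of the 7 genes was 104, 117 and 88.0 FPKM on day 5, 181 and 97.1 FPKM on day 14 and 75.4 and 79.5 FPKM on day 28. Both day 28 libraries lay under all others. Siglec1 made up 68.3%, 73.9% and 70.4% of this sum on day 5, 69.8% and 57.1% on day 14, and 41.2% and 41.8% on day 28. Without Siglec1, the sum was 33, 30.5 and 26 FPKM on day 5, 54.6 and 41.7 FPKM on day 14 and 44.4 and 46.2 FPKM on day 28. The remaining 6 genes together were therefore higher in each library of days 14 and 28 than in any of day 5, while Siglec1 and the sum of all 7 were lowest on day 28. The ratio of Siglec1 to Cd33, in FPKM, was 8.70 to 8.98 on day 5, 5.62 and 3.18 on day 14 and 1.47 and 1.85 on day 28.

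**Figure D2:**
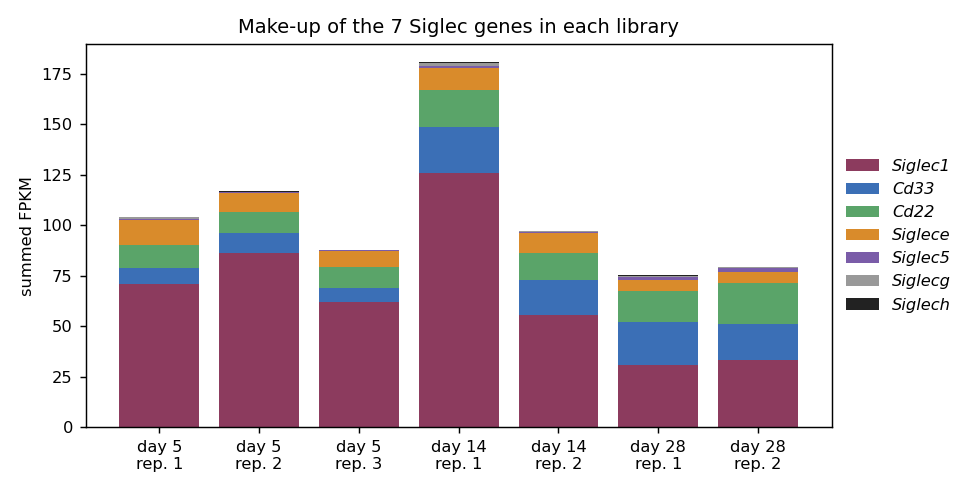
Summed FPKM of the 7 Siglec genes (vertical axis) in each of the 7 libraries (horizontal axis), with the share of each gene as a coloured segment. The Siglec1 segment took 68.3% to 73.9% of the bar on day 5 and 41.2% and 41.8% on day 28.

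Between days 5 and 28, 3 Siglec genes rose and 2 fell. DE genes therefore made up 5 of 7 Siglec genes, beside 15.2% of all 12858 genes tested (7.74% higher and 7.51% lower on day 28). The libraries of the 2 days did not overlap for 6 of the 7 genes, beside 51.5% of all genes tested. The median log2 fold change of the 7 genes was 0.74, beside 0.03 over all genes tested, with 5 positive and 2 negative. With the added demand of a 2-fold difference in mean FPKM and a mean of at least 5 FPKM on 1 of the days, 2 genes remained, Siglec1 and Cd33, beside 3.52% of all genes.

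Cd33 rose. CD33 (Siglec-3) is a receptor of myeloid cells and microglia that is inhibitory in humans, while the mouse protein lacks the canonical inhibitory motif. Cd33 was at 7.90, 9.92 and 6.98 FPKM on day 5, at 22.4 and 17.4 on day 14 and at 21.2 and 18 on day 28. The 4 later libraries lay above all 3 of day 5, and those of days 14 and 28 overlapped. Its log2 fold change between days 5 and 28 was 1.27 ± 0.17 (SE), with an edgeR adjusted p of 0.00267, and it was called DE under each of the 15 alternatives tried, with log2 fold changes from 1.13 to 1.41.

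Cd22 also rose. CD22 (Siglec-2) is best known as an inhibitory co-receptor of B cells. It was at 11.5, 10.4 and 10.2 FPKM on day 5, at 18.3 and 13.5 on day 14 and at 15.1 and 20.3 on day 28. All later libraries lay above those of day 5, and those of days 14 and 28 overlapped. The log2 fold change between days 5 and 28 was 0.74 ± 0.16 (SE), with an edgeR adjusted p of 0.0180. Without day 5 replicate 2, day 5 replicate 3 or day 28 replicate 2, the adjusted p was 0.0647, 0.0608 and 0.111. Defining transcripts of B cells were close to absent, with Pax5 at most 0.0442 FPKM and Cd79a and Ms4a1 at most 0.253 and 0.179 FPKM. Cd79b, a B cell marker that passed the filter on low counts, was between 4.38 and 10.3 FPKM and was not DE. The part of B cells in the Cd22 values was not tested. An antisense transcript, Gm29439, overlaps exons of Cd22 and holds 5.89% of its 75-base stretches, and whether the counting used strand is not given in the sources used here, so the Cd22 values could include its reads.

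Siglece fell. Siglec-E is the main inhibitory Siglec of mouse neutrophils and macrophages. It was at 12.2, 9.31 and 7.92 FPKM on day 5, at 10.9 and 9.65 on day 14 and at 5.54 and 5.29 on day 28. Both day 28 libraries lay under all others, and the day 14 libraries lay within the day 5 range. The log2 fold change between days 5 and 28 was -0.84 ± 0.20 (SE), with an edgeR adjusted p of 0.0232. The adjusted p was 0.0720 and 0.0586 without day 5 replicates 1 and 2, and 0.119 and 0.0939 without day 28 replicates 1 and 2. Some markers from a list for neutrophils were also present, although the sort excluded cells with a granulocyte marker. The listed markers summed to 263 to 291 FPKM on day 5, 524 and 534 on day 14 and 261 and 118 on day 28, the last in replicates 1 and 2. The largest parts of this sum were S100a9 and S100a8. Camp was at most 0.560 FPKM, Ngp was at 0 in all but day 14 replicate 2 (1.25 FPKM), and Ly6g had no entry. Of the 4 markers that were tested, Mmp8, a neutrophil collagenase, was lower on day 28 than on day 5 (log2 fold change -2.58), and S100a8, S100a9 and Retnlg were not DE. All 4 had negative log2 fold changes between days 5 and 28 and between days 14 and 28, that of Retnlg between days 5 and 28 being -0.10 (SE 0.39). Between days 5 and 14, the log2 fold changes of S100a8, S100a9 and Retnlg were positive (0.83, 1.05 and 0.90). That of Mmp8 was -1.60, and that of Siglece was 0.08. The part of neutrophils in the Siglece values was not tested. Cd33 and Siglece, both in the cluster on chromosome 7, were at similar levels on day 5, where the ratio of Cd33 to Siglece in FPKM was 0.649, 1.07 and 0.882. That ratio was 2.05 and 1.81 on day 14 and 3.83 and 3.39 on day 28.

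Siglec5 (Siglecf) rose from a low level. Siglec-F is an inhibitory receptor of eosinophils and of alveolar macrophages. It was at 0.551, 0.507 and 0.413 FPKM on day 5, at 1.15 and 0.694 on day 14 and at 1.57 and 1.91 on day 28. These values rest on 20 to 31 fragments per library on day 5, on 46 and 36 on day 14 and on 140 and 85 on day 28. The libraries of the 3 days did not overlap, and each library lay above all libraries of the earlier days. The log2 fold change between days 5 and 28 was 1.85 ± 0.36 (SE), with an edgeR adjusted p of 0.0105, with an adjusted p of 0.0559 and 0.0570 without day 28 replicates 1 and 2. Eosinophil transcripts did not show the same order. Prg3 was at 0 in each library, Epx was at 0 in all but day 5 replicate 1 (0.0165 FPKM), Prg2 was highest in day 14 replicate 1 at 1.13 FPKM, and Ccr3, the only one of 6 eosinophil markers tested, was not DE and was highest in day 14 replicate 1 at 3.42 FPKM. The eosinophil markers summed to 1.57 to 1.8 FPKM on day 5, 1.09 and 4.79 on day 14 and 1.65 and 1.87 on day 28. Among the 6 markers of alveolar macrophages, Ear2, a ribonuclease of the eosinophil-associated family, was DE between days 5 and 28, and its FPKM was at most 1.32 on day 5, 7.08 and 8.69 on day 14 and 34.0 and 39.5 on day 28. Ear2 belongs to a family of near-identical copies, so its counts are uncertain. Of the other 5 markers, Krt79 was at 0 in each library, and none was DE. The markers of alveolar macrophages summed to 80.7 to 101 FPKM on day 5, 58.3 and 96.4 on day 14 and 159 and 168 on day 28, of which Fabp4 was the largest part. The part of such cells in the Siglec5 values was not tested.

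Siglec1 fell between days 5 and 28, with a log2 fold change of -1.17 ± 0.30 (SE), with an edgeR adjusted p of 0.0294. In mean FPKM it went from 73.1 ± 12.3 (SD, n = 3) to 32.2 ± 1.5 (n = 2). The direction held without any single library, with log2 fold changes from -1.27 to -1.03. The adjusted p was 0.0780, 0.0894 and 0.0513 without day 5 replicates 1, 2 and 3 in turn, and 0.175 and 0.116 without day 28 replicates 1 and 2.

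The rarest transcripts were not DE. Siglecg, an inhibitory receptor of B cells and some dendritic cells, was at 0.701, 0.213 and 0.480 FPKM on day 5, 1.28 and 0.312 on day 14 and 0.464 and 0.546 on day 28. The libraries of the 3 days overlapped, and the log2 fold change between days 5 and 28 was 0.12 ± 0.67 (SE), with an edgeR adjusted p of 0.927. A gene model known only as Gm29791 shares 2.79% of the 75-base stretches of Siglecg. Siglech, a DAP12-coupled receptor of plasmacytoid dendritic cells and microglia, was counted in 4, 7 and 0 fragments on day 5, 19 and 4 on day 14 and 37 and 9 on day 28. In FPKM this was 0.0748, 0.155 and 0 on day 5, 0.478 and 0.0811 on day 14 and 0.436 and 0.213 on day 28. The day 28 libraries lay above those of day 5, but the log2 fold change of 2.11 ± 1.06 (SE) did not pass the test (adjusted p = 0.205, edgeR). With so few fragments and libraries, whether these days differed could not be settled. Of 7 markers of plasmacytoid dendritic cells, Ccr9, which marks these cells, was at most 0.106 FPKM, while Il3ra, an interleukin receptor of other myeloid cells too, was between 18.3 and 25.7 FPKM. None of the 3 that were tested was DE, and the markers summed to 21.1 to 21.8 FPKM on day 5, 25.7 and 28.1 on day 14 and 23.5 and 25.4 on day 28. Among markers of microglia, Gpr34 and Olfml3 were higher on day 28 than on day 5, and Sall1, a defining factor of microglia, was at most 0.0480 FPKM. The part of such cells in the Siglech values was not tested.

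**Figure D3:**
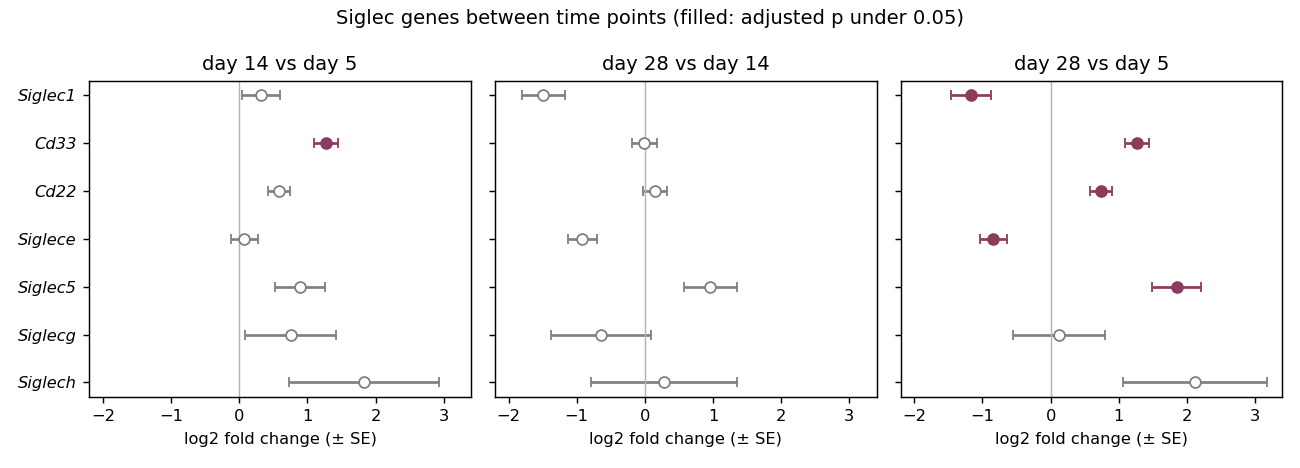
Log2 fold change with its SE (horizontal axis) of each Siglec gene (vertical axis) in the 3 comparisons of time points, from the edgeR fit to 7 libraries; filled points have an adjusted p under 0.05. The filled points are Cd33 between days 5 and 14, none between days 14 and 28, and Siglec1, Siglece, Cd33, Cd22 and Siglec5 between days 5 and 28.

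Between days 5 and 14, Cd33 alone was DE, 1 of 7 Siglec genes beside 4.78% of all genes tested (2.84% higher and 1.94% lower on day 14). It rose with a log2 fold change of 1.27 ± 0.17 (SE), with an edgeR adjusted p of 0.0113, and the adjusted p was 0.0547 without day 5 replicate 1. Cd33 also met the demand of a 2-fold difference and a mean of at least 5 FPKM, beside 1.17% of all genes. All 7 genes had a positive log2 fold change, with a median of 0.76 beside 0.03 over all genes tested. This rested on 1 library, since without day 14 replicate 1 the log2 fold change was positive for 4 of the 7 and the median was 0.11. The libraries did not overlap for 3 genes, Cd33, Cd22 and Siglec5, beside 43.2% of all genes. In edgeR, Cd22 had a log2 fold change of 0.58 ± 0.16 (SE) at an adjusted p of 0.0707, and Siglec5 one of 0.89 ± 0.37 at an adjusted p of 0.184. For Siglec1 the log2 fold change was 0.32 ± 0.28 (SE), with an edgeR adjusted p of 0.531, and it depended on 1 library. It was 0.79 without day 14 replicate 2 and -0.38 without day 14 replicate 1, in fits that leave 1 library on day 14. In the same fits the log2 fold change of Cd22 was 0.78 without day 14 replicate 2 and 0.36 without day 14 replicate 1. Siglece had a log2 fold change of 0.08 ± 0.19 (SE), with an edgeR adjusted p of 0.847.

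Between days 14 and 28, edgeR called 0 of the 7 Siglec genes DE, beside 0.0622% of all genes tested (0.0311% in either direction alone, and 0.0467% with the 2-fold demand). At an unadjusted edgeR p under 0.05 there were 3 of the 7, beside 1570 of all 12858 genes tested. DESeq2 called 2 of the 7 and limma 0, beside 336 and 0 over all genes. The libraries did not overlap for Siglec1 and Siglece, which were lower on day 28, and for Siglec5, which was higher, beside 39% of all genes. With edgeR, the log2 fold change was -1.49 ± 0.32 (SE) for Siglec1, with an adjusted p of 0.110. It was -0.92 ± 0.22 for Siglece (adjusted p of 0.132) and 0.96 ± 0.39 for Siglec5 (adjusted p of 0.368). Without day 14 replicate 2, Siglec1 (adjusted p = 1.9e-04) and Siglece (adjusted p = 0.0483) were called DE by edgeR. The log2 fold change of Cd33 was -0.01 (SE 0.19) and that of Cd22 0.15 (SE 0.18), and both were of the size of their errors or less. The 3 comparisons share libraries, so they are not independent of one another.

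The 2 libraries of day 14 differed in their Siglec transcripts. The FPKM of replicate 1 divided by that of replicate 2 was 2.27 for Siglec1, 1.36 for Cd22, 1.29 for Cd33 and 1.13 for Siglece. Over 7613 genes with a mean of at least 5 FPKM, the median of this ratio was 1.01, and it was above 2 for 2.78% of them. For the genes at low levels the ratio was 5.89 for Siglech, 4.11 for Siglecg and 1.66 for Siglec5. Among 3374 tested genes with a mean under 2 FPKM and fragments in both libraries, it was above 4 for 4.86% and above 1.5 for 27.9%. Interferon-stimulated genes differed in the same direction, since each of 20 listed genes was higher in replicate 1, with a median ratio of 2.29. In replicate 1 they summed to 1568 FPKM and in replicate 2 to 704 FPKM.

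Siglec1 is itself known to be induced by interferon, and its level went with those of interferon-stimulated genes across the libraries. The part of interferon in the Siglec1 values was not tested. The 20 listed genes summed to 1441, 1444 and 1142 FPKM on day 5 and to 424 and 353 FPKM on day 28. On day 28, 16 of the 20 were lower than on day 5 and 0 higher, beside 7.51% and 7.74% of all genes tested. Their median log2 fold change was -1.46, beside 0.03 over all genes tested. Irf7, the transcription factor that amplifies the interferon response, had a log2 fold change of -2.40 ± 0.32 (SE), with an edgeR adjusted p of 0.00267. Isg15, a ubiquitin-like modifier, had one of -1.96 ± 0.39 (SE), with an edgeR adjusted p of 0.0115. Oas3 (log2 fold change -2.74), Ifit2 (-2.02) and Usp18 (-1.81), antiviral effectors and a feedback regulator of interferon signalling, completed the 5 with the largest differences. The 4 that did not pass the test, named after their values were seen, were Mx1, Mx2, Rsad2 and Stat2. Of the 20 genes, 0 were called between days 5 and 14 by edgeR, DESeq2 or limma, with 0 at an unadjusted p under 0.05. Between days 14 and 28 edgeR and limma called 0 and DESeq2 13, with 18 at an unadjusted edgeR p under 0.05. Over all genes, DESeq2 called 336, and 1570 of 12858 had such an unadjusted edgeR p. All 20 listed genes had a negative log2 fold change between these days, with a median of -1.20. Cd33 did not follow these genes, being low in the day 5 libraries and high in both libraries of day 14.

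**Figure D4:**
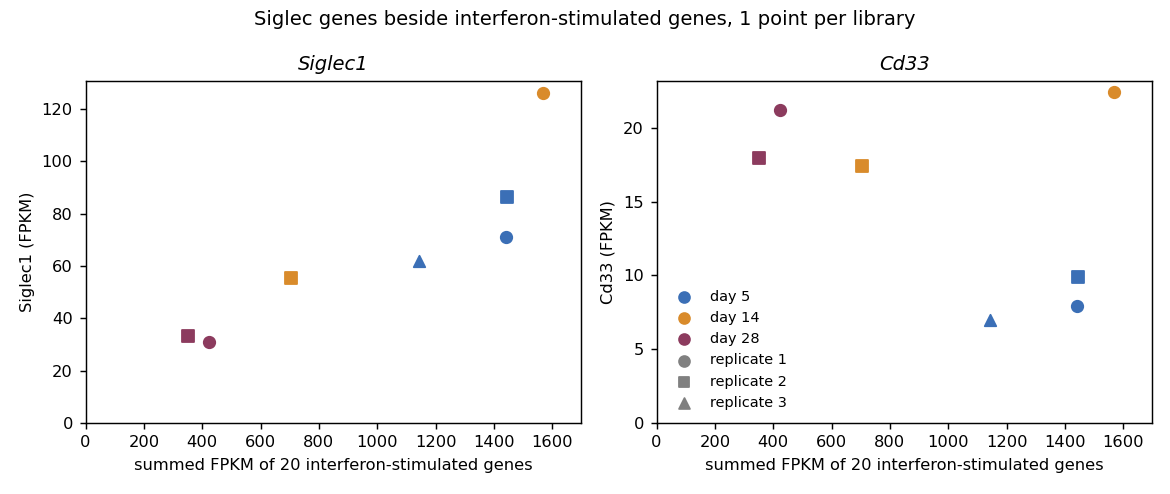
FPKM of Siglec1 (left) and Cd33 (right) on the vertical axes against the summed FPKM of 20 interferon-stimulated genes (horizontal axis), 1 point per library, coloured by day and shaped by replicate. Siglec1 was highest (126 FPKM) in the library with the largest sum (1568 FPKM, day 14 replicate 1) and lowest in the 2 day 28 libraries, whereas Cd33 was at 22.4 FPKM in the first and at 21.2 and 18 FPKM in the latter.

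The genes with the most similar pattern were sought by Pearson correlation of log2(FPKM + 1) across the 7 libraries, among 7555 genes. These libraries fall into 3 time points and differ in depth. The values are a description, with no test. For Siglec1 the nearest were Tap1 (r = 0.989), a peptide transporter of antigen presentation, Trafd1 (r = 0.983) and H2-T23 (r = 0.979), a non-classical MHC class I gene. For Cd33 they were Slc29a3 (r = 0.997), a lysosomal nucleoside transporter, Rassf5 (r = 0.985) and Rgs10 (r = 0.975), a regulator of G protein signalling. For Cd22 they were the MHC class II genes H2-Eb1 (r = 0.980) and H2-Ab1 (r = 0.977), and Phlpp1 (r = 0.965). For Siglece they were Bscl2 (r = 0.985), which encodes seipin, Slc25a10 (r = 0.977) and 4933426M11Rik (r = 0.976). Among the Siglec genes themselves, Siglec1 and Siglece (r = 0.851) and Cd33 and Cd22 (r = 0.844) varied together, and the other pairs of these 4 had r from -0.42 to -0.22.

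The partners through which Siglecs signal were present in all libraries, at differing levels. Ptpn11, the phosphatase SHP-2, was between 21.3 and 25.8 FPKM, and the adaptor gene Hcst between 23.3 and 41.9 FPKM. Tyrobp, the DAP12 adaptor, was between 1002 and 1240 FPKM and Ptpn6, the phosphatase SHP-1, between 120 and 166 FPKM in all libraries, and neither was DE in any comparison. Of 12 adaptors and signal transducers, 4 were lower on day 28 than on day 5 and 0 higher, beside 7.51% and 7.74% of all genes tested. The median log2 fold change of the 12 was -0.26. Lyn, the Src family kinase that phosphorylates the inhibitory motifs, had a log2 fold change of -0.62 ± 0.12 (SE), with an edgeR adjusted p of 0.0116, and the others were Hcst, Socs3 and Vav1. Socs3, a suppressor of cytokine signalling, had the largest difference of these, at -1.62 ± 0.41 (SE), with an edgeR adjusted p of 0.0291. Between days 5 and 14, and likewise between days 14 and 28, edgeR, DESeq2 and limma called 0 of the 12. At an unadjusted edgeR p under 0.05 there were 1 and 4 of the 12, beside 3083 and 1570 of all 12858 genes tested.

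Most genes listed for the synthesis of sialic acid or its attachment to glycans were not DE between days 5 and 28. Those that were DE were higher on day 28. Over all genes tested, 7.74% were higher and 7.51% lower on day 28 than on day 5. Of 8 genes listed under sialic acid synthesis, 6 were not DE, 2 were higher on day 28 than on day 5 and 0 lower. The list was not limited to synthesis, since it held Npl, a lyase of sialic acid, and Renbp. Neither of these was DE (log2 fold changes of 0.08 and -0.24). Gne, whose product is the rate-limiting enzyme, was at 1.47 to 2.33 FPKM on day 5 and at 3.69 and 4.0 FPKM on day 28, with a log2 fold change of 1.15 ± 0.30 (SE), with an edgeR adjusted p of 0.0322. Nanp, the phosphatase of a later step, had a log2 fold change of 1.45 ± 0.40 (SE), with an edgeR adjusted p of 0.0410. Of 20 sialyltransferases, which attach sialic acid to glycans, 12 were tested. Of these, 9 were not DE between days 5 and 28, 0 were lower on day 28 and 3 were higher. All 3 belong to the family that links sialic acid to another sialic acid. St8sia4 was at 17.9 to 19.9 FPKM on day 5 and at 27.2 and 35.6 FPKM on day 28, with a log2 fold change of 0.79 ± 0.16 (SE), with an edgeR adjusted p of 0.0144. St8sia6 was at 0.427 to 0.499 FPKM on day 5, 1.40 and 1.87 on day 14 and 1.02 and 1.42 on day 28, and was DE between days 5 and 14 too, as was St8sia1, which stayed under 0.3 FPKM throughout. Of 7 genes for sialidases and sialic acid removal, 5 were tested, and Neu1, the lysosomal sialidase, was lower on day 28 with a log2 fold change of -0.56 ± 0.13 (SE), with an edgeR adjusted p of 0.0206.

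Of 7 glycoproteins known to be bound by Siglecs, 1 was higher and 2 lower on day 28 than on day 5, and 4 were not DE. Over all genes tested, 7.74% were higher and 7.51% lower. Cd24a, a ligand of Siglec-G, had a log2 fold change of 0.44 ± 0.11 (SE), with an edgeR adjusted p of 0.0332. Cd44, the hyaluronan receptor, had one of -0.49 ± 0.13 (SE), with an edgeR adjusted p of 0.0344, and Mrc1, the mannose receptor, one of -0.73 ± 0.19 (SE), with an edgeR adjusted p of 0.0347. Outside the 7 genes followed here, Mag, the Siglec of myelinating glia, was at 2.38 to 3.87 FPKM on day 5, 4.32 and 6.64 on day 14 and 5.25 and 5.28 on day 28, with a log2 fold change between days 5 and 28 of 0.86 ± 0.26 (SE) and an edgeR adjusted p of 0.0531. Siglec15, a DAP12-coupled Siglec of osteoclasts, was at 0 to 0.496 FPKM on day 5 and at 0.968 and 3.83 FPKM on day 28 (adjusted p = 0.0525, edgeR).

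**Figure D5:**
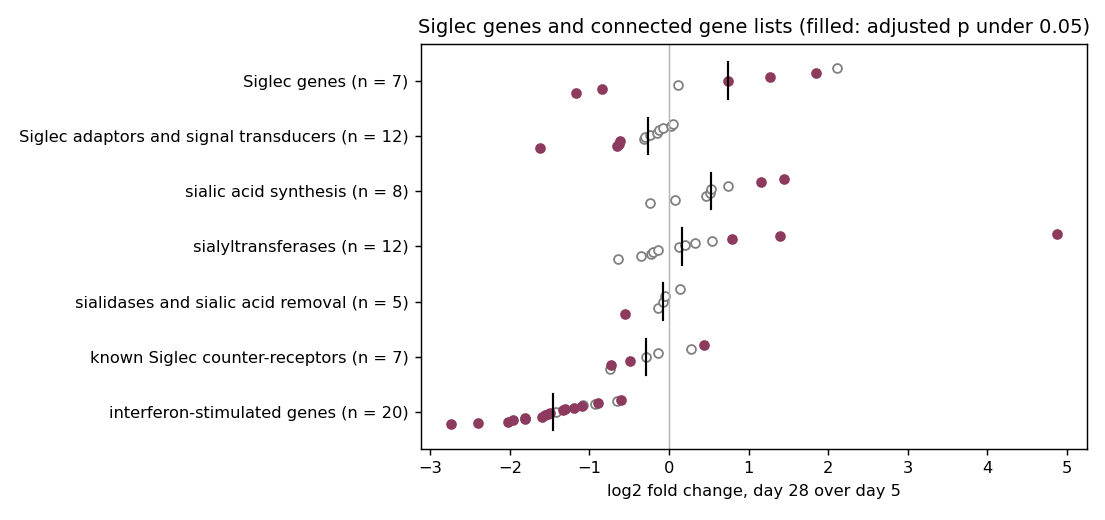
Log2 fold change between days 5 and 28 (horizontal axis) of the tested genes of each list (vertical axis); filled points have an adjusted p under 0.05, and black lines mark the median of a list. The Siglec genes lie on both sides of 0 with a median of 0.74, whereas the 20 interferon-stimulated genes all lie below 0 with a median of -1.46.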

How the data were processed

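RNASeq values of 23361 genes in 7 libraries were used. Per the labels, reads were trimmed with cutadapt 1.8, mapped to mm10 with TopHat2 2.0.13 and quantified with Cuffdiff 2.2.1. The estimated counts deposited for each gene are the fragments that Cuffdiff assigned before scaling. A second deposited value, a signal, multiplies these fragments by a factor for the library, and the authors derived FPKM values from it and from transcript length. Cuffdiff gave a failed status in 8 values of 4 genes, 0 of them Siglec genes, and these were kept.

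For the tests, estimated counts were rounded and entered into edgeR 4.0.16 (R 4.3.3) with TMM factors and its filterByExpr filter. The quasi-likelihood test was adjusted after Benjamini-Hochberg over 12858 genes, with all libraries in 1 fit and time point as its only factor. The Siglec genes, gene lists and tests were chosen with earlier results of these data known. By rule, all 7 Siglec genes, up to 5 DE genes of each list with the largest change, some defining markers, and the 3 tested genes most similar to each Siglec gene with a mean of at least 1 FPKM were named. Other list genes were named after their values were seen. Lists for neutrophils, Schwann cells, T cells, mast cells and dendritic cells held 4, 1, 1, 1 and 6 tested genes, of which Mmp8 (lower) and Mbp, Cd2 and Ccr7 (higher) were DE between days 5 and 28.

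Alternatives were DESeq2 1.42.0, RLE size factors, the scaling of Cuffdiff, no filter, fits on 2 time points, limma 3.58.1 on log2 FPKM with a pseudocount of 1 or 0.1, the replicate number as a block, a threshold of 0.01 and leaving out each library. Coordinates are from GENCODE vM21, among whose transcripts 75-base stretches were compared. Of the 7 Siglec genes, 6 had a RefSeq promoter window. Some list genes are not reported here.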

Additional observations from a re-analysis of the deposited data

How the results depend on the processing

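Of the 314 values of single Siglec genes under an alternative, 271 kept their direction and their side of the threshold, 10 passed it in addition, 19 no longer passed it and 14 changed sign, all 14 in comparisons that were not DE. Between days 5 and 28 the count of DE Siglec genes (5) was 2 with the replicate block and 1 at an adjusted p under 0.01, and 1 to 5 without single libraries. The count over all genes (1960) was 735 with the replicate block, 597 at 0.01 and 452 to 2746 without single libraries. Between days 5 and 14 the Siglec count (1) was 2 with DESeq2 and with no filter, 0 with the replicate block and at 0.01, and 0 to 3 without single libraries. The count over all genes (614) was 1308 with DESeq2, 1429 with no filter, 252 and 277 with limma at pseudocounts of 1 and 0.1, 315 with 2 time points fitted, 6 with the replicate block, 24 at 0.01 and 52 to 1728 without single libraries. Between days 14 and 28 the Siglec count (0) was 2 with DESeq2 and with no filter, and 0 to 2 without single libraries. The count over all genes (8) was 336 with DESeq2, 390 with no filter, 0 with either limma fit, with 2 time points, with the replicate block and at 0.01, and 0 to 629 without single libraries. The highest counts without a library were reached where 1 day 14 library was left out, and counts with a lone library in a group, which was assumed to vary like the other groups, were added after seeing the data. Fits without a library have fewer samples, and the cause of the other differences was not tested.

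The log2 fold changes that changed sign between days 5 and 14 were those of Siglec1 (-0.38 to 0.79 without single libraries), Siglece (-0.047 with the replicate block, -0.047 to 0.26 without single libraries) and Siglecg (-0.56 to 1.46). Between days 14 and 28 they were those of Siglech (-0.52 to 1.99), Siglecg (-1.34 to 0.68), Cd33 (-0.18 to 0.18) and Cd22 (-0.079 to 0.38), and between days 5 and 28 that of Siglecg (-0.22 to 0.54). Libraries of different days come from different mice, and what the replicate numbers stand for is not given in the sources used here. Whether same-numbered libraries shared a sort or a batch is therefore not known. Deviations of same-numbered libraries correlated at 0.111, -0.054 and 0.054 over 7613 genes and 2 pairs. With this number as a block, Cd33 and Siglece stayed DE between days 5 and 28 (edgeR adjusted p of 0.0242 and 0.0316), and Siglec1 (0.0698), Siglec5 (0.0660) and Cd22 (0.0903) did not. Groups of 2 libraries, and few fragments of Siglecg and Siglech, limit what could be detected.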
